A study of Oryza sativa Japonica Group with 8 samples.

Results

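Calcium sensors and their kinases were followed in rice shoots by the names of 4 gene families: calcineurin B-like proteins (CBL), CBL-interacting protein kinases (CIPK), calcium-dependent protein kinases (CPK, also written CDPK) and calmodulin-like proteins (CML). A gene belonged to the set when its symbol or a synonym in the gene annotation was one of these family names followed by a number, with or without the prefix Os. The annotation held 89 such genes, of which 74 had a probe set on the array, out of 17905 genes measured. These were 7 of 9 CBL, 24 of 30 CIPK, 20 of 24 CPK and 23 of 26 CML genes. The 15 genes not analysed here, since the probe table used pairs none with them alone, were CBL1 and CBL7, CIPK3, CIPK9, CIPK13, CIPK15, CIPK27 and CIPK33, CPK11, CPK14, CPK25 and CPK28, and CML2, CML21 and CML22. Each gene was represented by its brightest probe set over the 8 arrays.

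The arrays measured RNA of above-ground tissue of Nipponbare rice seedlings 5 days old, raised at 28 °C. Ubi::OsYHB/Nip seedlings, called OsYHB here, carry a phytochrome B allele that is always active, driven by the maize Ubiquitin promoter, in the Nipponbare background. Phytochrome B is a receptor of red light. The plants were grown in darkness or in continuous red light at 50 µmol per square metre and second, and so were wild-type (WT) seedlings, which gives the groups OsYHB red light, OsYHB dark, WT red light and WT dark. Every group had 2 arrays, which the labels call biological replicates. Replicate 1 of OsYHB was line 1 (41-fold overexpression of the transgene) and replicate 2 was line 9 (23-fold), so each line stood once in each light condition. Red light seedlings were harvested under red light and dark-grown ones under dim green light.

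Calcium entering the plant cytosol is read by proteins with EF-hand motifs. CBL proteins have no enzyme activity and act by binding CIPK kinases, which they activate and bring to a membrane. CPK proteins carry the EF hands and the kinase in 1 polypeptide, and CML proteins are relatives of calmodulin that pass the signal on by binding other proteins. These families are best known for ion transport, salt, drought, cold and low oxygen responses.

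Replicate arrays had correlations of log2 intensity between 0.992 and 0.996 over all probe sets, and array medians of intensity lay between 20.4 and 20.9. A probe set for a reporter sequence was at log2 12.90 to 13.26 on the OsYHB arrays and at 2.85 to 3.02 on the WT arrays, as the genotype labels have it. It was picked among the reporter probe sets for its wide range over the arrays, so the size of this gap is a description only. The PHYB probe set did not follow the overexpression that the labels state: it differed by -0.12 in OsYHB red light against WT red light and by -0.27 in OsYHB dark against WT dark (limma adjusted p = 0.899 and 0.396). Whether its probes can read the transgene is not known here. The tissue label was set against marker genes. The summed intensity of 5 leaf markers (of 6 listed in the annotation) was 45770 and 45900 in OsYHB red light, 45130 and 47750 in OsYHB dark, 44590 and 45050 in WT red light, and 21210 and 22580 in WT dark. Of the root markers, the silicon transporter gene Lsi1 was bright on every array (log2 8.88 to 9.88), while Lsi2 was at 2.17 to 4.02 and AMT1-2 at 2.07 to 3.09. The nicotianamine synthase genes NAS1 and NAS2 were bright in WT red light, NAS1 at 8.73 and 9.56 and NAS2 at 8.26 and 8.95, against 3.25 to 5.64 and 3.86 to 5.16 in WT dark, and both were called there by limma (log2 differences 4.70 and 4.09, adjusted p = 0.00363 and 0.000423). In OsYHB NAS1 lay between 3.14 and 4.05 and NAS2 between 3.87 and 4.08. The summed intensity of 5 root markers (of 7 listed) was 514.9 and 509.9 in OsYHB red light, 605.1 and 681.7 in OsYHB dark, 1239 and 1760 in WT red light, and 1054 and 688.6 in WT dark. Among 5 seed and late embryo markers (of 6 listed) the sum was 747.8 and 769.6 in OsYHB red light, 814.1 and 851.4 in OsYHB dark, 780.9 and 1596 in WT red light, and 2279 and 1595 in WT dark. The 5 genes did not move together. In OsYHB dark against WT dark RAB21, LEA19 and Dhn1 differed by -4.48, -4.27 and -1.07 (limma adjusted p = 0.025, 0.0354 and 0.00182). GLUA2 differed by 0.50 there (adjusted p = 0.113), and GLUA1 was at log2 2.04 to 2.51 on every array. In WT red light RAB21 was at 4.84 and 9.14. These sums move with the groups compared below, and their part in the members' differences was not tested. In such bulk tissue, fewer cells of a type and less RNA per cell cannot be told apart.

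Most of the 74 genes gave a moderately or strongly bright signal, though the values carry no detection call. The mean log2 intensity over the 8 arrays ran from 2.43 for CPK2 to 11.29 for CIPK14, with a median of 8.41 over the 74 genes. Because the brightest probe set of a gene was taken, this level is a description only. It was above the median of all probe sets, 4.38, for 61 of the 74 genes, and was at least 10 for 15 genes. It was under 4 for 11 genes, among them CPK2, CPK29, CML32 and CIPK30, and those give little room to see a decrease. The family medians were 8.36 for CBL, 8.60 for CIPK, 8.72 for CPK and 7.46 for CML. Levels on an array depend on the probes, so genes are not ranked by abundance.

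**Figure D1:**
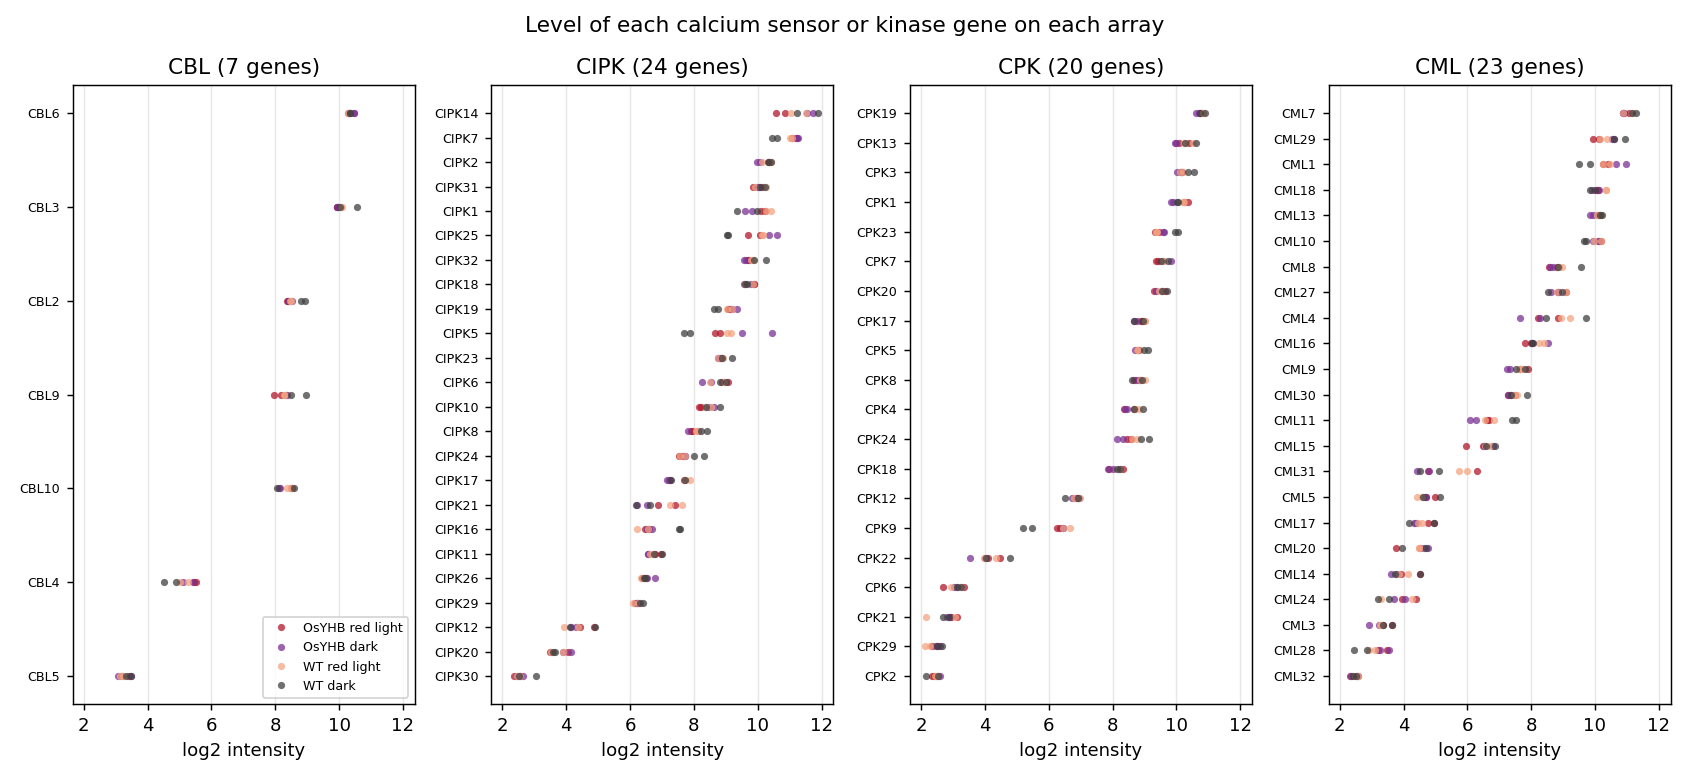
Log2 intensity (horizontal axis) of each of the 74 genes (vertical axis, sorted by mean within a family) on each of the 8 arrays, with 1 point per array coloured by group. The arrays of most genes lie close together, and the points of CIPK5, CIPK25, CPK9 and CML1 in WT dark stand to the left of their other points.

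The brightest member of each family was not called in any comparison. CIPK14, whose near-identical copy CIPK15 has no probe set of its own here and may share the signal, was at log2 10.86 and 10.56 in OsYHB red light, 11.73 and 11.53 in OsYHB dark, 11.03 and 11.52 in WT red light, and 11.88 and 11.22 in WT dark. It was lowest in OsYHB red light, without overlap with the other groups, but neither the difference from OsYHB dark (-0.92, SE 0.24, adjusted p = 0.178 in limma) nor that from WT red light (-0.56, adjusted p = 0.655) passed the test. The range of its group means was 0.92. CML7 lay between 10.87 and 11.28 on all arrays, CPK19 between 10.62 and 10.89 and CBL6 between 10.27 and 10.48. Across the 74 genes the highest and the lowest group mean differed by a median of 0.43 on the log2 scale, against 0.35 over all probe sets. Against all genes by their brightest probe set, the members' median absolute difference from WT dark was smaller. It was 0.219 against 0.244 in WT red light and 0.305 against 0.321 in OsYHB dark. It was larger between OsYHB red light and OsYHB dark (0.209 against 0.176) or WT red light (0.134 against 0.130). Between OsYHB dark and WT red light it was larger too (0.208 against 0.173). The range of group means was over 1 for 9 genes and under 0.5 for 44.

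Members passed the test only in comparisons that include the WT dark arrays. In OsYHB dark against WT dark, 12 of 74 members (16.2%) were called at an adjusted p below 0.05, 7 higher and 5 lower, where 17.0% of all probe sets were called (7.69% higher and 9.27% lower), and 28.0% of the genes when each is represented by its brightest probe set. In WT red light against WT dark, 9 of 74 (12.2%) were called, 6 higher and 3 lower, where 9.73% of all probe sets (5.14% higher and 4.59% lower) and 17.1% of the genes were called. The members' share was thus at or near that of all probe sets and below that of genes chosen the same way. The counts depend on single arrays. In OsYHB dark the count of called members fell or rose with the array left out. In WT red light 4 were called without WT red light replicate 1 and 3 without WT red light replicate 2, where 4.55% and 4.17% of all probe sets were called. The median log2 difference of the members was -0.17 in OsYHB dark, equal to the -0.17 of all genes, and was -0.07 in WT red light, where that of all genes was -0.10. Both comparisons use the WT dark arrays, so the agreement of their directions in a gene is not independent. By family, OsYHB dark gave 1 called CBL, 5 CIPK, 3 CPK and 3 CML genes, and WT red light gave 0 CBL, 5 CIPK, 2 CPK and 2 CML genes.

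**Figure D2:**
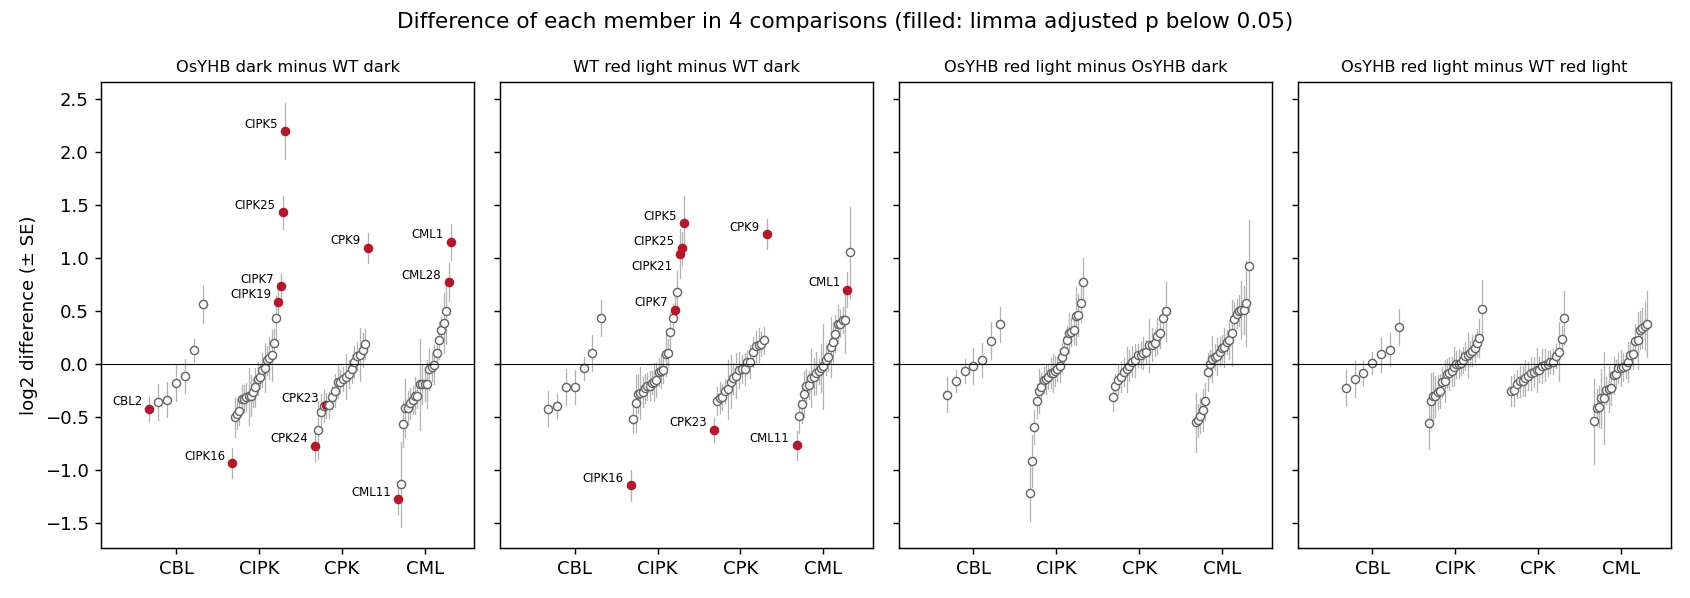
Log2 difference of each member with its standard error (vertical axis) in 4 comparisons, 1 panel each, by family and sorted by size, with members called by limma filled and named. The 12 called in OsYHB dark and the 9 in WT red light, both against WT dark, lie between -1.28 and 2.19, and the panels for OsYHB red light hold no filled point.

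Among the CBL calcium sensors, 1 of 7 genes passed a test. That was 14.3% in OsYHB dark against WT dark, where 28.0% of the genes by their brightest probe set were called. CBL2, known in cereals as a sensor at the vacuolar membrane, was at log2 8.36 and 8.41 in OsYHB red light, 8.39 and 8.51 in OsYHB dark, 8.48 and 8.47 in WT red light, and 8.94 and 8.81 in WT dark. WT dark was above the other 6 arrays. The difference was -0.43 in OsYHB dark (SE 0.11, limma adjusted p = 0.0379) and -0.40 in WT red light (adjusted p = 0.0663), the second not called. With the replicate number as a block, CBL2 in OsYHB dark was no longer called (adjusted p = 0.0613), and the call was lost with quantile normalization (0.0576), with the arrays of the 2 groups alone (0.122) and on leaving out any 1 of 7 arrays, all but WT dark replicate 2 (up to 0.163). CBL4, the counterpart of the Arabidopsis salt tolerance sensor SOS3, differed by 0.56 in OsYHB dark (SE 0.17, adjusted p = 0.0597) and was not called. CBL3, CBL5, CBL6, CBL9 and CBL10 were called nowhere.

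The CIPK kinases, 24 of the 74 members, held 6 of the 13 members called in any comparison, and CIPK5 had the largest difference of all members. In each comparison against WT dark 5 of the 24 (20.8%) were called. Of the genes by their brightest probe set, 28.0% were called in OsYHB dark and 17.1% in WT red light. CIPK5 was at log2 8.67 and 8.82 in OsYHB red light, 9.50 and 10.43 in OsYHB dark, 9.15 and 9.04 in WT red light, and 7.87 and 7.68 in WT dark. All 4 groups stood apart without overlap, OsYHB dark highest and WT dark lowest. Between these 2 groups 56.0% of all probe sets did not overlap. The kinase rose 4.57-fold in OsYHB dark against WT dark (log2 2.19, SE 0.26, limma adjusted p = 0.00113) and 2.50-fold in WT red light (log2 1.32, SE 0.26, adjusted p = 0.0158). The 2 lines were unequal in darkness, with line 1 minus line 9 at -0.94, and without line 9 the OsYHB difference was 1.73, without line 1 it was 2.66, still called in both. The red light call was lost without WT dark replicate 2, WT red light replicate 1 or WT red light replicate 2, with adjusted p up to 0.104.

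CIPK25 had the same order of groups as CIPK5. It was at log2 10.08 and 9.68 in OsYHB red light, 10.35 and 10.61 in OsYHB dark, 10.12 and 10.16 in WT red light, and 9.05 and 9.06 in WT dark. WT dark was below the other groups and OsYHB dark above them. CIPK25 rose 2.69-fold in OsYHB dark (log2 1.43, SE 0.16, limma adjusted p = 0.000766) and 2.13-fold in WT red light (log2 1.09, SE 0.16, adjusted p = 0.00373), and both calls stood under every alternative run.

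CIPK16 went the other way. It was at log2 6.47 and 6.59 in OsYHB red light, 6.54 and 6.69 in OsYHB dark, 6.58 and 6.23 in WT red light, and 7.56 and 7.55 in WT dark, so that 3 groups overlapped and WT dark stood above them. CIPK16 fell by 0.94 in OsYHB dark (SE 0.14, limma adjusted p = 0.00371) and by 1.15 in WT red light (SE 0.14, adjusted p = 0.00175) on the log2 scale. Its probe set is of the type that can cross-hybridise, and the next gene on the chromosome, CIPK27, has no probe set of its own here.

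CIPK21 was high in the red light groups of both genotypes. It was at log2 6.88 and 7.40 in OsYHB red light, 6.53 and 6.22 in OsYHB dark, 7.64 and 7.26 in WT red light, and 6.63 and 6.20 in WT dark, so no dark array reached a red light array. It rose 2.05-fold in WT red light (SE 0.23 on the log2 scale, limma adjusted p = 0.0267), whereas in OsYHB dark the difference from WT dark was -0.04 (adjusted p = 0.929). In OsYHB seedlings red light against dark gave 0.77 (SE 0.23, adjusted p = 0.213), which was not called, and the interaction was -0.27 (95% interval -1.02 to 0.48). The call was lost without WT dark replicate 2, WT red light replicate 1 or WT red light replicate 2 (adjusted p up to 0.173), and with an offset of 16 added before the logarithm (0.0538).

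CIPK7 and CIPK19 had smaller differences, with WT dark lowest. CIPK7 was at log2 11.20 and 11.07 in OsYHB red light, 11.24 and 11.27 in OsYHB dark, 11.01 and 11.07 in WT red light, and 10.46 and 10.60 in WT dark. It rose by 0.73 in OsYHB dark (SE 0.12, limma adjusted p = 0.00463) and by 0.51 in WT red light (adjusted p = 0.0292). The red light call was lost with the replicate block (adjusted p = 0.0510), with the arrays of the 2 groups alone (0.0948) and without WT dark replicate 1, either WT red light array or either OsYHB dark array (up to 0.168). A second, dimmer probe set of the gene, at a mean of 7.73, differed by 0.95 in OsYHB dark (adjusted p = 0.00513) and by 1.59 in WT red light (adjusted p = 0.000508). The RefSeq record of this gene also lists names of a thylakoid translocation subunit, so which transcript each probe set reads is not known here. CIPK19 was at log2 9.08 and 9.14 in OsYHB red light, 9.19 and 9.35 in OsYHB dark, 9.03 and 9.20 in WT red light, and 8.62 and 8.75 in WT dark, and rose by 0.58 in OsYHB dark (SE 0.12, adjusted p = 0.016). That call was lost with the arrays of the 2 groups alone (adjusted p = 0.0626) and without WT dark replicate 1 or OsYHB dark replicate 2 (up to 0.108), and CIPK19 in WT red light (0.43, adjusted p = 0.0676) was not called.

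The other CIPK genes were not called in these comparisons, though several lay near the threshold. CIPK24, the counterpart of the Arabidopsis salt tolerance kinase SOS2, differed by -0.45 in OsYHB dark (limma adjusted p = 0.0615) and by -0.52 in WT red light (adjusted p = 0.0531). CIPK1 differed by 0.68 in WT red light (adjusted p = 0.0707) and by 0.05 in OsYHB dark (adjusted p = 0.885). CIPK32 differed by -0.48 in OsYHB dark (adjusted p = 0.0519). CIPK23, a regulator of root potassium uptake through the channel AKT1, differed by -0.27 in OsYHB dark (SE 0.14, adjusted p = 0.223) by its brightest probe set. Its second probe set, also bright at a mean log2 of 8.08, differed by -1.50 there with a wide error (SE 0.47, adjusted p = 0.0622) and was not called either.

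**Figure D3:**
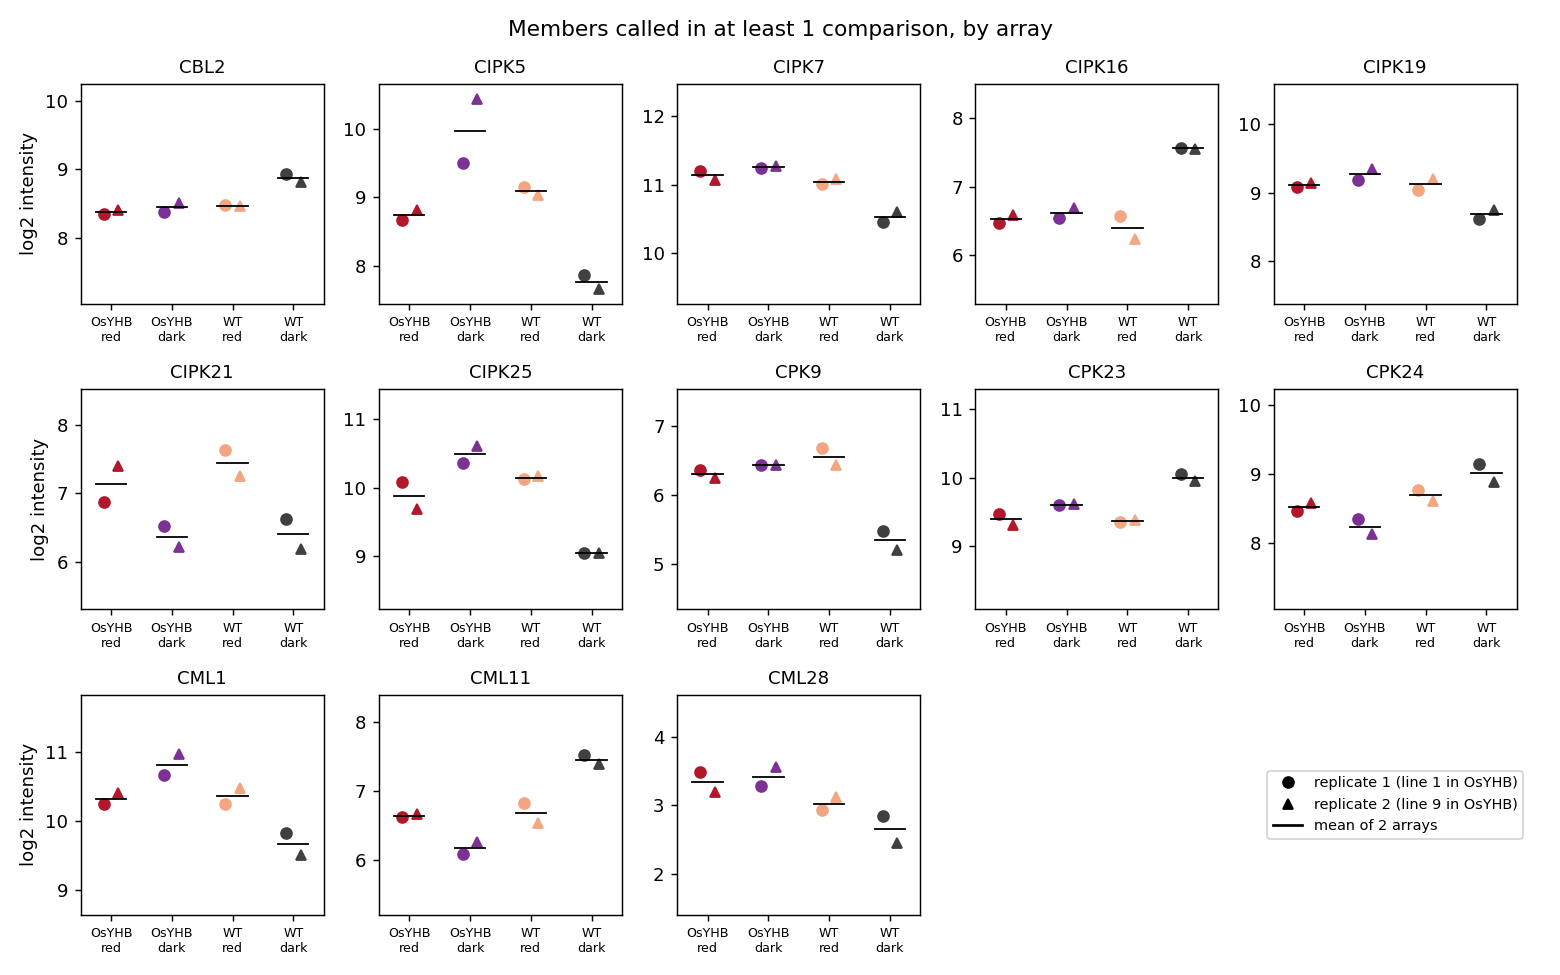
Log2 intensity (vertical axis, 1 scale per gene, all spanning the same number of log2 units) on each array for the 13 members called in at least 1 comparison, by group, with a bar at the mean of the 2 arrays. Circles are replicate 1 and triangles replicate 2, which are lines 1 and 9 in OsYHB. For 12 of the 13 genes WT dark has the highest or lowest mean. Of all probe sets, 34.2% have WT dark highest and 28.6% have it lowest. The genes were called in comparisons that include WT dark, so their choice favours such a place for WT dark. CIPK21 is the gene whose red light groups are both above its dark groups.

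In the CPK family, where sensor and kinase are fused, 3 of 20 genes passed a test. In OsYHB dark 15% were called and in WT red light 10%, where 28.0% and 17.1% of the genes by their brightest probe set were. CPK9, linked in rice to drought responses, was at log2 6.37 and 6.25 in OsYHB red light, 6.43 and 6.44 in OsYHB dark, 6.68 and 6.44 in WT red light, and 5.48 and 5.20 in WT dark. WT dark was below the other 6 arrays by more than any replicate difference. CPK9 rose 2.13-fold in OsYHB dark (log2 1.09, SE 0.14, limma adjusted p = 0.0017) and 2.33-fold in WT red light (log2 1.22, SE 0.14, adjusted p = 0.0012), and both calls stood under every alternative run.

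CPK23 and CPK24 were lower. CPK23 was at log2 9.47 and 9.32 in OsYHB red light, 9.60 and 9.61 in OsYHB dark, 9.36 and 9.39 in WT red light, and 10.06 and 9.94 in WT dark. In limma it fell by 0.39 in OsYHB dark (SE 0.11, adjusted p = 0.0495) and by 0.62 in WT red light (SE 0.11, adjusted p = 0.0115). The OsYHB call was lost with the replicate block (0.0716), with quantile normalization (0.0682), with the arrays of the 2 groups alone (0.131) and on leaving out any 1 of the 8 arrays (up to 0.163), and the red light call was lost without either WT red light array (up to 0.0786). CPK24, a kinase linked to cold tolerance in rice, was at log2 8.46 and 8.59 in OsYHB red light, 8.34 and 8.13 in OsYHB dark, 8.77 and 8.62 in WT red light, and 9.14 and 8.88 in WT dark. OsYHB dark was lowest and WT dark highest, with no overlap among the groups. Between OsYHB dark and WT dark, 56.0% of all probe sets did not overlap. CPK24 fell by 0.78 in OsYHB dark (SE 0.14, adjusted p = 0.00847), a call lost without OsYHB dark replicate 2 (0.0705), and in WT red light the difference of -0.32 (adjusted p = 0.221) was not called. The other 17 CPK genes, CPK3 among them at -0.39 in OsYHB dark (adjusted p = 0.061), were not called.

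Of the 23 CML sensors, 3 passed a test. CML1, listed also as OsCAM61 and known for a lipid-anchoring tail, was at log2 10.24 and 10.41 in OsYHB red light, 10.66 and 10.97 in OsYHB dark, 10.25 and 10.48 in WT red light, and 9.83 and 9.50 in WT dark. OsYHB dark was highest, the red light groups of both genotypes overlapped, and WT dark was lowest. CML1 rose 2.22-fold in OsYHB dark (log2 1.15, SE 0.17, limma adjusted p = 0.003) and by 0.70 on the log2 scale in WT red light (SE 0.17, adjusted p = 0.0358). The red light call was lost with the replicate block (0.0520), with the arrays of the 2 groups alone (0.0825) and without WT dark replicate 2, either WT red light array or either OsYHB red light array (up to 0.220).

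CML11 ran in the opposite direction. It was at log2 6.62 and 6.67 in OsYHB red light, 6.08 and 6.27 in OsYHB dark, 6.83 and 6.54 in WT red light, and 7.52 and 7.39 in WT dark, so OsYHB dark was lowest and WT dark highest. CML11 fell by 1.28 in OsYHB dark (SE 0.14, limma adjusted p = 0.00068) and by 0.77 in WT red light (SE 0.14, adjusted p = 0.0105), the second call lost without WT red light replicate 2 (0.0881). CML28 was dim throughout, at log2 3.49 and 3.20 in OsYHB red light, 3.28 and 3.56 in OsYHB dark, 2.93 and 3.12 in WT red light, and 2.85 and 2.46 in WT dark. Its rise of 0.77 in OsYHB dark (SE 0.18, adjusted p = 0.0228) was lost with an offset of 16 before the logarithm (0.0519), with the arrays of the 2 groups alone (0.0654) and without WT dark replicate 2 or OsYHB dark replicate 2 (up to 0.144).

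CML4 and CML31 varied as much but between replicates too. CML4 was at log2 8.20 and 8.85 in OsYHB red light, 8.28 and 7.65 in OsYHB dark, 9.22 and 8.93 in WT red light, and 9.72 and 8.47 in WT dark, and its difference of -1.14 in OsYHB dark (SE 0.40, limma adjusted p = 0.0903) was not called. CML31 was at log2 4.77 and 6.30 in OsYHB red light, 4.80 and 4.43 in OsYHB dark, 5.99 and 5.73 in WT red light, and 5.11 and 4.51 in WT dark. Its difference of 1.05 in WT red light (SE 0.43, adjusted p = 0.187) was not called.

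With OsYHB present, light made no difference that passed the test in any member. In OsYHB red light against OsYHB dark, 0 of 74 members were called by limma, where 0.0105% of all probe sets were called. An unadjusted p below 0.05 was found in 14 of the 74 members, a larger share than the 14.6% of all probe sets. The smallest adjusted p was 0.138, for CIPK5, which was 1.22 lower in red light on the log2 scale (95% interval -1.82 to -0.62). In OsYHB red light against WT red light, 0 of 74 members were called, where 0.0192% of all probe sets were called. There 2 of the 74 members had an unadjusted p below 0.05, a smaller share than the 7.60% of all probe sets. Differences in that comparison lay between -0.56 and 0.52, and their 95% intervals reached from -1.46 to 1.14. OsYHB dark against WT red light, which share no array, gave 0 of 74 called, where 0.194% of all probe sets were called. The smallest adjusted p by limma was 0.116, for CIPK21 (-1.08). An unadjusted p below 0.05 was found in 16 of the 74 members, a larger share than the 16.4% of all probe sets. All probe sets are not matched to genes taken by their brightest probe set. The intervals of this comparison reached from -2.23 to 1.47, so for the most variable members differences of that size lie within the interval.

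The difference between the genotypes in their response to light was tested directly as an interaction, in which the WT response to red light is taken from the OsYHB response. It was called in 6 of 74 members (8.11%), 2 higher and 4 lower, where 4.22% of all probe sets (1.53% higher and 2.68% lower) and 7.83% of the genes by their brightest probe set were called. CIPK5 had a response of -1.22 in OsYHB and 1.32 in WT, a difference of -2.54 (SE 0.37, limma adjusted p = 0.0084). CIPK25 had -0.60 in OsYHB and 1.09 in WT, a difference of -1.69 (SE 0.22, adjusted p = 0.00557). For CPK9 the responses were -0.13 in OsYHB and 1.22 in WT, a difference of -1.35 (SE 0.20, adjusted p = 0.00933). These 3 stood under every alternative run.

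CML1 had a response of -0.49 in OsYHB and 0.70 in WT (difference -1.19, SE 0.24, limma adjusted p = 0.0309). CML11 had 0.47 in OsYHB and -0.77 in WT (difference 1.24, SE 0.20, adjusted p = 0.0122). CIPK16 had -0.09 in OsYHB and -1.15 in WT (difference 1.06, SE 0.20, adjusted p = 0.026). The call of CML11 was lost without WT red light replicate 2 or OsYHB red light replicate 2 (adjusted p up to 0.0606). That of CML1 was lost without any 1 array but WT dark replicate 1 and OsYHB dark replicate 1 (up to 0.145), and that of CIPK16 without any 1 array but WT dark replicate 2 and WT red light replicate 1 (up to 0.102). In CIPK5, CIPK25, CML1 and CML11 the response in OsYHB thus ran opposite in sign to that in WT, although the OsYHB response alone was called in none of them. In CPK9 and CIPK16 the OsYHB response was small beside that in WT. Over the 74 members the red light responses of the genotypes, which share no array, had a Pearson correlation of -0.06, against 0.215 over all probe sets, and the same sign in 36 of 74 members (48.6%), against 50.4% of all probe sets. The points share the platform and the replicates of each genotype, so these are descriptions.

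**Figure D4:**
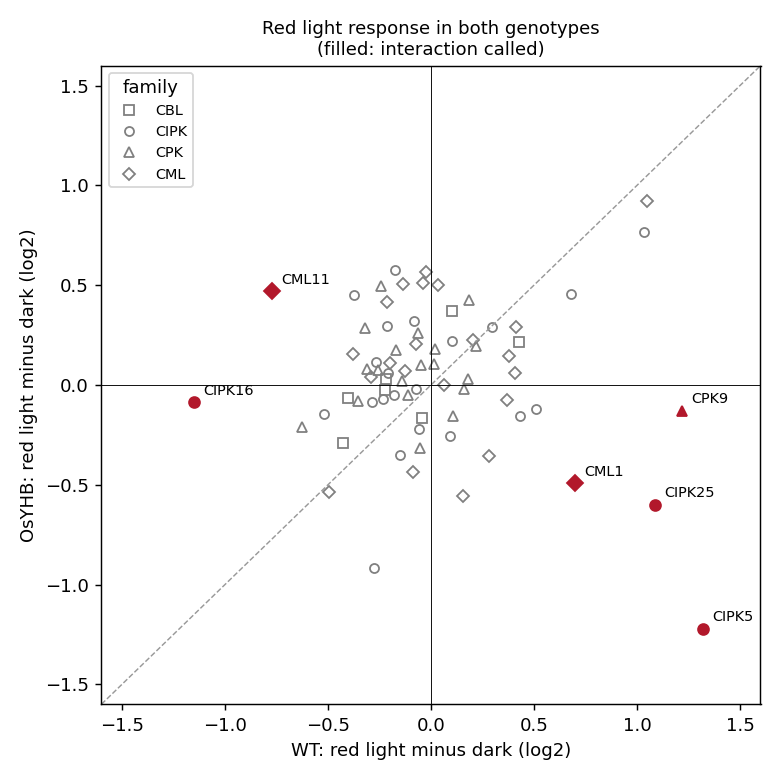
Red light response (red light minus dark, log2) of each of the 74 members in OsYHB (vertical axis) against that in WT (horizontal axis), with the family as the symbol and the 6 members called in the interaction filled. The filled points CIPK5, CIPK25, CPK9, CML1, CIPK16 and CML11 lie away from the dashed line of equal response: CIPK5, CIPK25, CPK9 and CML1 at the lower right, CML11 at the upper left and CIPK16 at the left near an OsYHB response of -0.09.

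Several genes had more than 1 probe set, and these did not always give the same call. Of the 15 members with several probe sets, CIPK2 was not called by its brightest (-0.08 in WT red light), while a dimmer one, at a mean log2 of 3.52, was higher by 0.90 (limma adjusted p = 0.0024). CIPK31 differed by -0.07 in WT red light by its brightest probe set and rose by 0.62 by its second (adjusted p = 0.0216). The second probe set of CIPK31 and the brightest of CIPK2, CBL9 and CML13 are, like that of CIPK16, of the type that can cross-hybridise. In the interaction the second probe sets of CIPK31 and CIPK7 were called as well, at -0.86 (adjusted p = 0.0424) and -1.02 (adjusted p = 0.0403), whereas the brightest gave 0.05 for CIPK31 and -0.63 (adjusted p = 0.0758) for CIPK7 and were not called. CPK13 had differences of -0.46 (adjusted p = 0.103) by the brightest and -0.92 (adjusted p = 0.0162) by the second probe set in OsYHB dark. In CML5 a second probe set, at a mean of 3.69, was lower by 0.70 in OsYHB dark (adjusted p = 0.0415) and the brightest was not called.

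Genes that move calcium or respond to it, outside the name rule, were called at shares near or below those of all genes. Of 20 such genes with a probe set, out of 23 annotated, 1 was higher and 4 were lower in OsYHB dark against WT dark (25%, where 17.0% of all probe sets and 28.0% of the genes were called). In WT red light against WT dark 1 was higher and 0 lower (5%, where 9.73% and 17.1% were called). By limma 0 were called in the other 4 comparisons. In the interaction 4.22% of all probe sets and 7.83% of the genes were called, and in the others at most 0.194% of all probe sets. An unadjusted p below 0.05 was found in 5 of the 20 in the interaction, where 20.0% of all probe sets had one. In the others it was found in 0 to 4 of the 20, where 7.60% to 16.4% of all probe sets had one. The median log2 difference of the 20 genes was -0.32 in OsYHB dark and -0.08 in WT red light, where that of all genes was -0.17 and -0.10. Among 10 calcium pumps and exchangers, CAX2, a vacuolar calcium and proton exchanger, fell by 0.87 in OsYHB dark (SE 0.18, adjusted p = 0.0155). The calcium ATPase gene ACA8 fell by 0.54 (SE 0.11, adjusted p = 0.0133) and the sodium and calcium exchanger-like gene NCL1 by 0.45 (SE 0.13, adjusted p = 0.0451). ACA1, another calcium ATPase and dim on every array, rose by 0.60 in OsYHB dark (adjusted p = 0.0344) and in WT red light by 0.62 (adjusted p = 0.0445). Of 3 calmodulins, the classical calcium sensors, CAM1 fell by 0.46 in OsYHB dark (SE 0.12, adjusted p = 0.0401). The channels OsTPC1 and GLR3.1 were not called, and neither were 5 effectors, among them the potassium channel AKT1, the oxidase OsrbohB and the symbiosis kinase CCAMK.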

How the data were processed

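RNA of 8 seedling samples was hybridised to Affymetrix rice arrays, 1 array each. The deposited values are linear intensities, 1 for each probe set on each array, already processed by the authors. The tools named per the submitters' processing notes are RMA, GCOS and limma, while their versions, roles and the genome build were not given in the sources used here. No further normalization was applied, and there is no detection call. Probe sets were named through the platform annotation: 22436 have 1 gene, 95 several and 34727 none, and all 17905 genes were found in the RefSeq gene table. No sequence or genome was used here.

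The intensities were converted to log2, 123 control probe sets were left out, and 57258 probe sets entered a limma fit (version 3.58.1, R 4.3.3) of the 4 group means over all 8 arrays, whose degrees of freedom were 4 residual and 4.27 prior. Each test was two-sided, with Benjamini-Hochberg adjustment over all 57258 probe sets in each of 6 comparisons and calls at an adjusted p below 0.05. The script was tested on simulated data. The number of arrays limits the precision, and p-values measure the spread between 2 arrays a group. Tables and plots used pandas 2.3.3 and matplotlib 3.10.9 in Python 3.11.15.

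Where a gene lists names of several members, its main symbol, then an Os-prefixed name, then a name no other gene lists was used. Named with values in every array were, per family, up to 5 called members and the brightest, and the members called in the interaction (planned as 5, of 6 called, and all 6 are given). CML4 and CML31 were chosen after their values were seen. Members and lists were chosen with earlier results of these data known. Replicate number pairs the OsYHB arrays, since it is the transgenic line (correlation of deviations from group means 0.145), and is only a number in WT (0.093). The alternatives were quantile normalization, median centring, a filter at the median level, an offset of 16, averaging the probe sets of a gene, an intensity trend in the spread, the 2 groups alone, a replicate block and leaving out each array.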

Additional observations from a re-analysis of the deposited data

Results flagged for a closer look

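The red light response differed between OsYHB and WT, by the interaction in limma, in 6 members. The difference was -2.54 for CIPK5, -1.69 for CIPK25, -1.35 for CPK9 and -1.19 for CML1, and it was 1.06 for CIPK16 and 1.24 for CML11, on the log2 scale. The interaction includes the WT dark arrays, as both comparisons against WT dark do, so it is no separate evidence for those calls. Groups of 2 arrays are too small for a search for single outlying arrays.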

How the results depend on the processing

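No call of a member changed direction. For the 27 calls of members, 425 values under alternatives gave 358 calls and 67 losses, and 13 calls stood under every alternative: CIPK25 and CPK9 in all 3 comparisons, CIPK16 in OsYHB dark and WT red light, CIPK5 in OsYHB dark and the interaction, and CIPK7, CML1 and CML11 in OsYHB dark. In WT red light against WT dark, 14 members were called with an intensity trend in the spread, in place of 9. On leaving out each array in turn, the count ran from 3 to 10 there, falling to 4 without WT red light replicate 1 and to 3 without WT red light replicate 2, when 4.55% and 4.17% of all probe sets were called. It ran from 7 to 18 in OsYHB dark against WT dark, with 7 without OsYHB dark replicate 2 and 18 without WT dark replicate 2, and from 3 to 6 in the interaction, with 3 without WT red light replicate 2 or OsYHB red light replicate 2. The count stayed at 0 under every alternative in the other 3 comparisons. With the replicate block it was 10 in OsYHB dark, 7 in WT red light and 6 in the interaction, and the block changed no call but those of CBL2, CPK23, CIPK7 and CML1 given above. With the arrays of the 2 groups alone, 8 members were called in OsYHB dark and 7 in WT red light, with the calls of CBL2, CIPK19, CML28 and CPK23 lost in OsYHB dark and those of CIPK7 and CML1 in WT red light. The cause of these changes was not tested. Except where given, the share of all probe sets called under an alternative is not set beside the count. Whether the members' counts moved more than those of the whole array was therefore not assessed here. Dim members, 11 with a mean log2 under 4, give compressed differences.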

Other observations

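The 2 OsYHB lines differed in 1 direction in red light over the CML genes. Line 1 was above line 9 in 1 of 23 CML genes in red light, with a median difference of -0.24 on the log2 scale, and in 12 of 23 in darkness. Over all 74 members line 1 was above line 9 in 24 in red light and in 35 in darkness, against 51.0% of all probe sets in red light. CML31 had the widest gap, -1.53, in red light. In WT dark, replicate 1 was above replicate 2 in 53 of 74 members (71.6%), against 46.5% of all probe sets, and the widest gap was 1.25, for CML4. With 1 array per line and condition these are values without a test.

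The highest group mean was that of OsYHB red light, OsYHB dark and WT red light in 13 of 74 members each (17.6%), against 20.5%, 31.2% and 14.2% of all probe sets, and that of WT dark in 35 members (47.3%), against 34.2%. The lowest was that of OsYHB red light in 17 members (23.0%, against 22.5% of all probe sets), OsYHB dark in 31 (41.9%, against 25.2%), WT red light in 10 (13.5%, against 23.7%) and WT dark in 16 (21.6%, against 28.6%). These shares were not tested, and all probe sets are not matched to genes taken by their brightest probe set. In OsYHB dark against WT dark the median log2 difference was -0.17 over all such genes and over the members, and 0.005 over all probe sets.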
